A study of Homo sapiens with 59 samples.

Results

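Far from annotated gene starts, NCI-H661 cells carried 8124 H3K4me3 domains, of 23167 autosomal H3K4me3 runs in all. A run is a stretch of bases that lay under deposited H3K4me3 peaks in all 6 H2O libraries of the hairpin lines and was at least 500 bp long. The 8124 distal domains were chosen by their distance, more than 5 kb from every GENCODE v44 gene start of any type, and the other 15043 runs lay within 5 kb of one. NCI-H661 is an established large-cell lung carcinoma line. The cells were bulk sorted lines, not clones, that carried a doxycycline-inducible hairpin against DPPA2 (shDPPA2), against DPPA4 (shDPPA4) or both hairpins (shDPPA2+4). They received doxycycline (DOX) at 2 µg/ml for 7 days, or water (H2O), and no library of a non-targeting hairpin was analysed here. Parental cells without a hairpin were given DMSO or, at 10 µM for 1 day, A-485, which blocks acetylation by p300 and CBP. H3K4me3 was read in replicates 1 and 2 of each line and treatment, and H2AK119ub and H3K27me3 in replicates 1 and 3. Each treatment of parental cells had 2 libraries of H3K27ac (replicates 2 and 4), 2 of H2AK119ub (3 and 4) and 3 of H3K27me3 (2, 3 and 4), and SUZ12 was read in DMSO replicate 3 only.

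H3K4me3 is written by the SET1 and MLL families of methyltransferase complexes and is best known as the mark of CpG-rich promoters. Enhancers more often carry H3K4me1, with little H3K4me3, so a stretch of H3K4me3 far from any gene start can be an alternative promoter, an unannotated one, or a strongly marked regulatory element. H3K27ac is the p300/CBP mark of active promoters and enhancers. H2AK119ub is placed by Polycomb repressive complex 1 and H3K27me3 by Polycomb repressive complex 2, of which SUZ12 is a subunit. DPPA2 and DPPA4 are SAP-domain chromatin proteins of the early embryo, known in mouse embryonic stem cells for keeping H3K4me3 and H3K27me3 on the promoters of developmental genes.

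The longest, the most densely marked and some of the most changed distal domains had very different sequences. For each of these, the central 200 bases on the plus strand of hg38 are shown, with CpG dinucleotides in capitals, because CpG content is the feature that most divides these domains below. LINC00486, which held the domain of highest density, is described in words only.
SEMA3A intron, longest domain, chr7:84195251-84195450: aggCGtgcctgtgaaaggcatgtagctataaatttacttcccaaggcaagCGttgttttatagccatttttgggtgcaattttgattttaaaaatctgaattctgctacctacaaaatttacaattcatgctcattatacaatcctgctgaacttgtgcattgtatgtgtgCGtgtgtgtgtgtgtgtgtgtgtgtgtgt
ZNF217 intron, second longest, chr20:53593601-53593800: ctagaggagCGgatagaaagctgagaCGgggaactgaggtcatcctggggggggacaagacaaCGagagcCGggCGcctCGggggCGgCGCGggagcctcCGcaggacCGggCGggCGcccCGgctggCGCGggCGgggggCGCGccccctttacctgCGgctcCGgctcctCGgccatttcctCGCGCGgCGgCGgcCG
COL5A2 intron, among the longest, chr2:189168451-189168650: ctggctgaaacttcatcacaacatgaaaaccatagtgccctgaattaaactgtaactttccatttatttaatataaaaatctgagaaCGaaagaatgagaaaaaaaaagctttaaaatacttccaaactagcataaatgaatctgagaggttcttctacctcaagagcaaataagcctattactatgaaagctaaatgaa
SUPT5H exon, high density, chr19:39445451-39445650: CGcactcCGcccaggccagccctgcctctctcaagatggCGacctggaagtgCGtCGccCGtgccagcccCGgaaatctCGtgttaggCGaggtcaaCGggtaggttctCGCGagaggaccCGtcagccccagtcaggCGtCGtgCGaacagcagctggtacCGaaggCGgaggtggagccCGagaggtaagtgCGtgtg
PSMA6 intron, high density, chr14:35293351-35293550: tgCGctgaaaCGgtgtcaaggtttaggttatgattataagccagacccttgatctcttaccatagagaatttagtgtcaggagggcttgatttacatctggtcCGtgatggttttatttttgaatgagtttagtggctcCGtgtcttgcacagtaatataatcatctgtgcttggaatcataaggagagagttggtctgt
MAP4K3 intron, most changed with DOX among regions lower in all pairs, chr2:39411851-39412050: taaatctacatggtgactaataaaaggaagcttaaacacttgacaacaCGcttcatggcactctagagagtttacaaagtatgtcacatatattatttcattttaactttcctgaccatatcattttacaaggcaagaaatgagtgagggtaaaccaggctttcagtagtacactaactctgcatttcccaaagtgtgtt
nearest CDH7, changed with DOX, chr18:66118701-66118900: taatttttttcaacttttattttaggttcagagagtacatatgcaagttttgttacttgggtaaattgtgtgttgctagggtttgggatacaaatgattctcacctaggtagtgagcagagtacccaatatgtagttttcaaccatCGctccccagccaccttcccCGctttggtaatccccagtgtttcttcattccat

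Of these stretches, that in ZNF217 held 28 CpG in 200 bases and that in SUPT5H 20. The stretches in PSMA6, SEMA3A and near CDH7 held 4, 3 and 2 CpG, and those in COL5A2 and MAP4K3 held 1 each. The LINC00486 domain, an intronic run of 600 bp on chromosome 2, was made mostly of G, with 82.2% G in its central 500 bp. Its input coverage of 160 reads per kb was the only one above 5 times the median of all distal domains, which was 5.61 reads per kb.

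Distal domains were shorter, weaker and poorer in CpG than runs near gene starts. Their median length was 1100 bp (interquartile range 700 to 1800, longest 15300), against 2200 bp for the other runs, and 3662 of them (45.1%) were at most 1000 bp long, against 13.6% of other runs. H3K4me3 density, given throughout as CPM (reads scaled to the library's total in autosomal peaks) per kb of called peak, had a median over domains of 5.77 in H2O cells, against 18.4 for the other runs. Their central 500 bp had a median GC content of 43.8%, against 65.2%. The median CpG observed over expected ratio, which is near 1 in unmethylated CpG islands and low in the bulk of the genome, was 0.362, against 0.767, and it reached 0.6 in 2332 distal domains (28.7%), against 75.9% of other runs. Length and density entered the choice of runs, so these values describe the domains and were not tested.

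By the position of the midpoint, 4132 distal domains (50.9%) lay in introns, 3164 (38.9%) between genes and 828 (10.2%) in an exon. Among other runs, 40.5% were intronic, 14.4% intergenic and 45.1% exonic by the same base. Overlap of a whole run with an exon was not counted. The median distance of a distal domain from the nearest gene start was 24190.5 bp and the largest 414808 bp. The domains just inside the 5 kb limit lay 5004, 5004 and 5007 bp from a gene start and had densities of 15.5, 6.14 and 4.46. Runs just outside it, at 4987, 4991 and 4994 bp, had densities of 14.0, 8.53 and 18.2. At the length limit, 762 distant runs were exactly 500 bp long and a further 874 fell short at 400 bp.

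GENCODE gives each gene 1 start but many transcripts, and this divided the distal domains into classes with different character. An annotated transcript start lay within 500 bp of 1504 of them, inside the domain in 1399, so that these sat at alternative starts of known genes, 1370 of them (91.1%) inside a protein-coding gene. A further 536 had one beyond 500 bp but within 5 kb, and 6084 had none within 5 kb. The first class resembled the runs near gene starts, with a median length of 1800 bp, a density of 13.6 and a CpG ratio of 0.707. The domains with no transcript start within 5 kb had medians of 1000 bp, 5.21 and 0.316. The class in between, at 1000 bp, 5.87 and 0.352, was close to these.

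**Figure D1:**
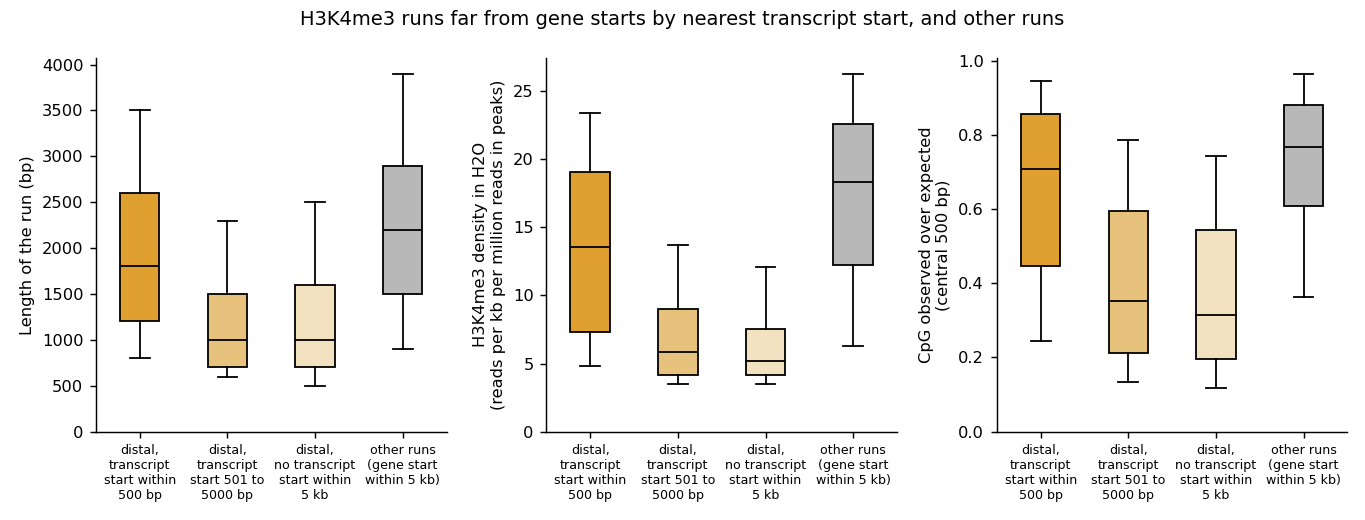
Length (bp), H3K4me3 density in H2O cells (CPM per kb of called peak) and CpG observed over expected of the central 500 bp, for the distal domains in 3 classes by nearest transcript start and for the other runs. Boxes show the median and quartiles over runs and whiskers the 10th and 90th percentiles. Distal domains with a transcript start within 500 bp lie nearer to the other runs, and those with none within 5 kb have the lowest median density, 5.21.

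Short sequence motifs in the central 500 bp, searched on both strands, differed in the same way. The AP-1 site TGANTCA, bound by FOS and JUN factors that are common at enhancers, occurred in 13.8% of distal domains and 6.14% of other runs. TATAAA occurred in 32.5%, against 9.75%. The ETS site CCGGAAG and the NRF1 site GCGCATGCG, both typical of CpG-rich promoters, occurred in 4.39%, against 13.4%, and in 0.455%, against 1.77%. The core CCACNAGG of the CTCF site occurred in 6.33%, against 8.32%. Among distal domains with a transcript start within 500 bp, AP-1 and TATAAA sites were present in 7.98% and 15.8%, and among those with none within 5 kb in 15.0% and 36.8%. TATAAA holds no G or C and GCGCATGCG almost only G and C, and the GC content of the groups differed as given above. A match describes the letters only and is no evidence of a bound factor.

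Within the distal domains, density went with length (Spearman's rho 0.575 across the 8124 domains) and with the CpG ratio (0.519, against 0.264 across the other runs), and fell with distance from a gene start (−0.254). Input reads per kb did not follow it (−0.005). These are descriptions across domains of the same 6 libraries, which are not independent replicates. The 6 H2O libraries gave like values, with a Pearson correlation of log2 density between 0.886 and 0.921 across domains. The coefficient of variation of a domain over those 6 libraries had a median of 15.1%, against 10.7% for the other runs.

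The 8 longest distal domains reached 9800 to 15300 bp. The longest was in SEMA3A, which encodes a secreted axon repellent, at chr7:84187701-84203000, 289724 bp from the gene start with a transcript start inside it. Its density was 10.4, 12.3 and 15.9 in DOX cells (lowest, median and highest of 6 libraries), against 12.1, 14.8 and 15.6 in H2O cells. The domain in ZNF217, a zinc finger transcriptional regulator, at chr20:53587901-53599500 (11600 bp), had 14.9, 16.0 and 21.4 in DOX cells, against 17.03, 21.01 and 22.8. In both, the ranges of the treatments overlapped. Reads in the merged region were lower with DOX in 5 of 6 pairs for SEMA3A (log2 fold change −0.17, edgeR adjusted p = 0.00725) and in 6 of 6 for ZNF217 (−0.14, edgeR adjusted p = 0.00606), changes too small for a call. The domain in COL5A2, a fibrillar collagen chain, at chr2:189163501-189173600 (10100 bp), varied most between libraries, with 5.25, 10.6 and 14.1 in DOX cells, against 4.54, 13.4 and 15.9.

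The other long domains lay in DGKB, a diacylglycerol kinase, in ALDH1A1, which makes retinoic acid from retinaldehyde, in the long noncoding genes LINC00609 and ENSG00000234147, and between genes beyond ZNF217. Their median densities in H2O cells ran between 8.62 (LINC00609, with input of 18.04 reads per kb) and 14.9. None of these 8 domains was marked by H2AK119ub or H3K27me3 in any H2O library, marked meaning that at least 50% of the bases lay under peaks, and each was marked by H3K27ac in 1 or both DMSO libraries.

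The domains of highest density lay mostly at annotated alternative transcript starts. Leaving aside the G run in LINC00486 (69.9, 81.0 and 88.7 in DOX cells, against 76.8, 84.5 and 90.1 in H2O cells), the highest was in SUPT5H, which encodes the elongation factor SPT5. It had 22.3, 34.3 and 44.1 in DOX cells, against 40.9, 47.9 and 49.9 in H2O cells. The domain in PSMA6, a proteasome core subunit, had 24.4, 30.6 and 48.2, against 37.4, 43.6 and 48.7. Ranges overlapped between the treatments in both, while reads in the merged region were lower with DOX in 6 of 6 pairs, with a log2 fold change of −0.20 for SUPT5H and −0.21 for PSMA6 (edgeR adjusted p = 0.0052 and 0.0108), again too small for a call. URI1, ZNF546, LRFN1, TGIF1 and CCL28 held the next 5, with median densities of 37.3 to 40.6 in H2O cells. All 7 were marked by H3K27ac in both DMSO libraries, and 6 of the 7 held a transcript start, the exception being LRFN1. SUPT5H, URI1, ZNF546 and LRFN1 lie on chromosome 19. Input coverage in the 7 domains was 10.6 to 27.8 reads per kb, above the 5.61 of the median distal domain, and the part of copy number in their density was not tested.

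The domains farthest from any gene start were small and weak. They lay at chr1:82136501-82137000, at chr4:63937901-63938400 and, for 3 of the 5, inside SEMA3A, 399924 to 414808 bp from a gene start. Their median densities in H2O cells were 3.20 to 5.05. No H2AK119ub or H3K27me3 covered them, and 2 of them, both in SEMA3A, were marked by H3K27ac in 1 DMSO library.

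Most genes that hosted a distal domain held only 1, and a few long genes held many. In all 1915 protein-coding genes hosted at least 1, of which 1396 hosted exactly 1 and 116 hosted 5 or more. CADM2, a synaptic adhesion molecule of the immunoglobulin family, held 74 domains that added to 101800 bp. Among the annotated protein-coding genes that follow, ADGRL2, a latrophilin receptor, held 43, and ERBB4, the neuregulin receptor kinase, 40. ARHGAP15, a Rac GTPase-activating protein, held 38, and SEMA3A 36. PDE4D held 32, the Slit receptor ROBO1 28, the protocadherin PCDH9 27, HDAC9 26 and PCLO 24.

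Domains in these genes shared a weak, CpG-poor character. In the 10 genes just named the median density of a gene's domains ran between 3.26 and 4.63 in DOX cells and between 4.11 and 5.74 in H2O cells, where all distal domains had 5.77. Median CpG ratios were 0.199 to 0.267. In CADM2, 54 of 74 domains were marked by H3K27ac in at least 1 DMSO library but only 3 in both, and 1 was marked by H2AK119ub in any H2O library. ERBB4 had 24 of 40 with H3K27ac in at least 1, 3 in both and 3 with H2AK119ub. No domain of these 10 genes was marked by H3K27me3 in any H2O library.

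Joined where the gap was under 10 kb, the distal domains made 5363 strings, of which 4105 were a single domain and 1258 held 2 or more (4019 domains). In 200 strings there were 5 or more domains, 1429 in all. The largest had 23 domains over 107600 bp at chr1:103126801-103234400, in intergenic sequence nearest to COL11A1, all 23 marked by H3K27ac in at least 1 DMSO library and 2 in both. A string of 22 lay in PCDH9, one of 21 nearest to the bile acid transporter gene SLC10A2, one of 19 nearest to SLC6A15 and one of 17 in COL5A2. Domains covered 61.0% of the COL5A2 string's 73800 bp, with a median input of 11.9 reads per kb, and between 32.3% and 48.6% of the other 4. By chromosome, distal domains were most frequent relative to other runs on chromosomes 13 (109 per 100 other runs) and 4 (107) and least on 16 (22.4) and 19 (24.1).

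By gene family, distal domains were most common in genes of axon guidance and adhesion. Of the 47 autosomal genes listed, 18 (38.3%) held a domain and together they held 193, against 10.3% of all 19111 autosomal protein-coding genes (1963, a gene being counted here also where genes overlap). Their median gene length was 350933 bp, against 27877 bp for all genes, and length was not corrected for. CADM2, SEMA3A and ROBO1 led, followed by SEMA3C with 16, SEMA3E with 13 and SEMA3D with 9. Developmental transcription factors had a domain in 24 of 111 genes (67 domains), led by FOXP2 and SOX5 with 12 each and PBX3 with 9. Among Wnt ligands, receptors and antagonists, 13 of 63 genes held 26 domains, and among receptor tyrosine kinases 6 of 31 held 54, mostly in ERBB4 (40) and IGF1R (9). HOX genes had 7 domains in 4 of 39 genes.

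The domains of these families differed in their Polycomb-linked marks. Of the 67 domains in developmental transcription factors, 32 were marked by H2AK119ub in at least 1 H2O library, 19 in all 6, and 8 by H3K27me3 in all 6. All 7 HOX domains were marked by H2AK119ub in at least 1 H2O library and 3 in all 6. Of the 193 in axon guidance and adhesion genes, 17 were marked by H2AK119ub in at least 1 library, 3 in all 6, and 1 by H3K27me3 in all 6. Median CpG ratios were 0.394, 0.590 and 0.249 in that order. Over all distal domains, 9.15% were marked by H2AK119ub and 1.87% by H3K27me3 in all 6 H2O libraries. These lists were chosen with earlier results known and were not tested.

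At gene starts, H3K4me3 in all 6 H2O libraries marked 11 of 22 lung epithelial, 10 of 13 neuroendocrine, 14 of 16 mesenchymal, 10 of 20 germline and 3 of 16 blood cell gene promoters, against 67.0% of all genes. The promoters of DPPA2 and DPPA4 were covered over all 3100 bp of their window in at least 1 DOX and 1 H2O library, which does not check a hairpin that acts on RNA. H3K4me3 libraries held 8247751 to 18998114 reads in 30046 to 32108 autosomal peaks. The other libraries held 564300 to 5354798 reads in peaks for H2AK119ub, 589049 to 12493043 for H3K27me3, 774582 to 6433817 for H3K27ac and 530897 for SUZ12.

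Nearly all distal domains kept H3K4me3 after induction of the hairpins. At least 50% of the bases stayed under peaks in 98.7% to 99.95% of distal domains in the 6 DOX libraries, against 99.7% to 99.98% of other runs. In all 6 DOX libraries together 7835 of 8124 were covered. Since the H2O libraries chose the domains, a domain could only keep or lose coverage. The same rule applied to the 6 DOX libraries gave more distal domains, 9111 of 24585 runs. Those were covered in 96.8% to 98.9% of cases in the H2O libraries.

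Density was slightly lower with DOX. The median over distal domains was 5.12 ± 0.55 in DOX cells and 5.77 ± 0.32 in H2O cells (SD, n = 6 libraries each), with ranges of 4.45 to 5.86 and 5.30 to 6.14 that overlapped. As a ratio to the median of the other runs in the same library it was 0.290 ± 0.029 in DOX cells and 0.317 ± 0.020 in H2O cells, and was lower with DOX in 6 of 6 pairs of line and replicate. With domains chosen in the DOX libraries the ratio was 0.271, against 0.291, and with domains under peaks in all 12 libraries 0.310, against 0.333, each lower in 5 of 6 pairs. Density in DOX cells was below that in H2O cells on average in 6731 distal domains (82.9%), against 70.3% of other runs. With TMM scaling of reads over merged regions, in the fit described next, the log2 fold change was below 0 in 58.4% of regions with distal domains and 44.9% of regions without, so on that scale most regions without distal domains were not lower. The DOX libraries of replicate 2 were also the deepest, at 13569888 to 18998114 reads in peaks, against 8558316 to 10768848 in the matching H2O libraries, and the part of depth in the shift was not tested.

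Single distal regions changed little, and nearly all called changes were losses. Reads were summed over merged peak regions and fitted in edgeR over all 12 libraries, and a region was called at an adjusted p (Benjamini-Hochberg) below 0.05 with a log2 fold change of 0.5 or more in either direction. Of 21342 regions tested, 6125 held 7591 of the distal domains, and the other 533 domains were not in a region with a peak past the study's filter in all 12 libraries, so a domain lost outright in a library is not among the calls. Over the 3 lines 59 regions with distal domains were called, 53 lower and 6 higher with DOX, which is 0.865% and 0.098% of the 6125. Over all regions tested 0.525% were called, 0.328% lower and 0.197% higher. The median log2 fold change of the 6125 regions was −0.04, against 0.00 over all regions, and 1772 (28.9%) had an unadjusted p under 0.05, against 5753 of all 21342 regions (26.96%). Of the 1772, 1291 were lower. Since the domains were chosen in the H2O libraries, which are also the baseline of this contrast, the excess of losses is a description.

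The 53 lower regions lay mostly in CpG-poor sequence. Their domains had a median CpG ratio of 0.225, against 0.806 for the 6 higher regions, and 41 of the 53 (77.4%) held a domain marked by H3K27ac in at least 1 DMSO library, near the 76.2% of all distal domains. The log2 fold changes were −1.22 to −0.50 in the lower and 0.51 to 0.58 in the higher regions. The called length fell with the reads. Its median was 2400 bp in DOX cells and 3100 bp in H2O cells, and it was shorter with DOX in 48 of 53 regions. Reads were counted only within called peaks, and with the called length as an offset 51 regions were called, all lower, of which 4 were among the 59. In 38 regions all 6 pairs moved the same way, and in 4 the DOX and H2O libraries did not overlap.

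These counts rested on the choice of fit. DESeq2 called 27 regions with distal domains, all deposited peaks gave 43 and a fit with no replicate block gave 0. Leaving out replicate 1 gave 157 and leaving out replicate 2 gave 0. Without a single library the count was 37 and 19 (shDPPA2 H2O replicates 1 and 2), 27 (shDPPA2 DOX replicate 1), 31 (shDPPA4 H2O replicate 2), 39 and 27 (shDPPA2+4 H2O replicates 1 and 2) and 207 and 31 (shDPPA2+4 DOX replicates 1 and 2).

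The largest fall that all 6 pairs shared was in an intron of MAP4K3, which encodes a kinase of stress and nutrient signalling, at chr2:39407801-39413900. Reads in this region were 10.4 and 8.34 CPM in shDPPA2 DOX, 2.19 and 2.08 in shDPPA4 DOX and 8.59 and 12.4 in shDPPA2+4 DOX cells. In H2O cells they were 10.8 and 9.17, 18.1 and 14.3, and 15.4 and 15.0 in the same lines. The shDPPA4 libraries thus stood apart, and the log2 fold change was −2.91 (SE 0.25) in shDPPA4, −0.10 (SE 0.21) in shDPPA2 and −0.50 (SE 0.20) in shDPPA2+4 cells, with −1.17 (SE 0.13, edgeR adjusted p = 0.000729) over the 3 lines. The difference between shDPPA4 and shDPPA2 was −2.81 (SE 0.33, edgeR adjusted p = 0.0076) and that between shDPPA2+4 and shDPPA4 was 2.41 (SE 0.32, adjusted p = 0.042). The first of these was lost without shDPPA2 H2O replicate 2, shDPPA2 DOX replicate 1 or replicate 1 of either shDPPA4 group, and the second without any of 9 of the 12 libraries. Over the 3 lines, the called length in the region ran from 800 to 4800 bp in DOX and from 2600 to 5200 bp in H2O libraries. The domain itself, chr2:39411201-39412700, had a density of 2.18, 3.26 and 3.80 in DOX cells (lowest, median, highest), against 3.28, 3.82 and 4.42 in H2O cells. It was marked by H3K27ac in 1 DMSO library and by neither Polycomb-linked mark.

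The region nearest to CDH7, a cadherin gene, at chr18:66117601-66120800, had 1.49 to 2.68 CPM in DOX cells, against 2.99 to 5.29 in H2O cells, with no overlap. In edgeR it fell by 1.05 on the log2 scale (SE 0.21, adjusted p = 0.0103), from only 16 to 44 reads in DOX and 24 to 56 in H2O libraries. The region in a CADM2 intron at chr3:85575501-85579800 had 2.23 to 5.13 CPM, against 3.58 to 9.93, and fell by 0.99 (SE 0.20, edgeR adjusted p = 0.0117). The region nearest to DSEL, chr18:67194401-67197300, had 1.62 to 6.29, against 7.42 to 9.51, again with no overlap, and fell by 0.87 (SE 0.19, edgeR adjusted p = 0.015). All 3 were lower in 6 of 6 pairs, none was called in a single line, and their domains were unmarked by H3K27ac, H2AK119ub and H3K27me3. CDH7 and DSEL are the nearest protein-coding genes, with starts 368249 and 319920 bp from the domains.

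The other 6 named regions were lower in 6 of 6 pairs with overlapping groups. They lay in introns of FSIP1 (log2 fold change −0.69), SEMA3A (−0.68) and DLG2, a synaptic scaffold gene (−0.62), and nearest to RFPL4B (−0.66, with 3 domains), TARBP1 (−0.64) and IRS1, the insulin receptor substrate gene (−0.63), with edgeR adjusted p between 0.00221 and 0.0467. In the DLG2 region the 6 libraries averaged 13.05 ± 2.47 CPM in DOX cells and 20.4 ± 5.28 in H2O cells, and in the IRS1 region 8.76 ± 2.47 and 13.3 ± 2.82 (SD, n = 6 each). The SEMA3A region, chr7:84072301-84076200, is at one of the domains farthest from any gene start. RFPL4B, TARBP1 and IRS1 are the nearest protein-coding genes, with starts 275671 to 278671, 36122 and 375220 bp from the domains. Across all settings that left out 1 replicate or library, the log2 fold changes of the 10 named regions stayed below 0, between −1.31 and −0.31. Only that of FSIP1 moved by more than 1.5 times, to −1.15 without replicate 1, −0.31 without replicate 2, −1.08 without shDPPA2+4 DOX replicate 1 and −0.46 without shDPPA2+4 DOX replicate 2. All 10 lost the call without replicate 2, and those of MAP4K3, DLG2 and TARBP1 also without replicate 1. With 1 library left out, those of MAP4K3, DLG2, RFPL4B and IRS1 kept it every time, and those nearest to CDH7 and in CADM2 lost it only without shDPPA2 H2O replicate 2. That nearest to DSEL lost it without shDPPA2 H2O replicate 2, shDPPA4 H2O replicate 2 or shDPPA4 DOX replicate 1. The calls in SEMA3A, nearest to TARBP1 and in FSIP1 were kept in only 7, 4 and 4 of the 14 settings.

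**Figure D2:**
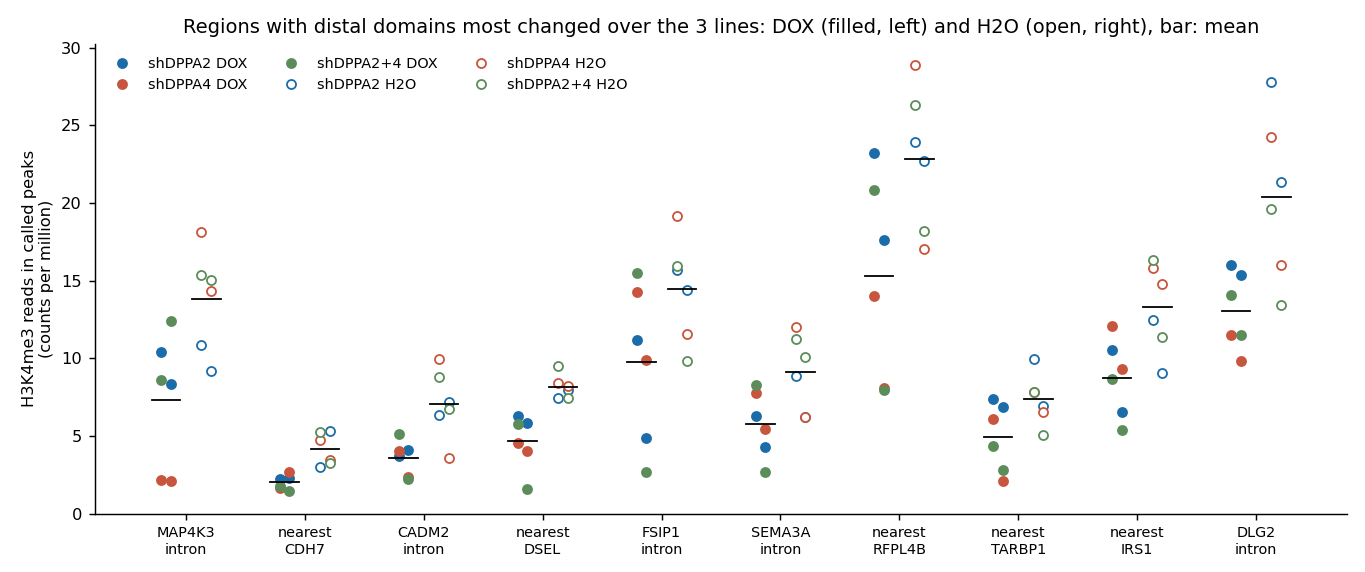
H3K4me3 reads in called peaks (CPM) in the 10 named regions, with 6 DOX libraries (filled, left) and 6 H2O libraries (open, right) in each, colored by line, and a bar at each mean. The 2 shDPPA4 DOX libraries of the MAP4K3 region sit near 2, far below the other lines, and only the regions nearest to CDH7 and DSEL have no overlap.

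The 6 regions that rose were in SVOPL (log2 fold change 0.58), CDH23, a cadherin of the inner ear (0.54), OLFM1 (0.52), the noncoding genes ENSG00000287683 (0.52) and ENSG00000234156 (0.51), and nearest to STOML3 (0.57). The OLFM1 region averaged 16.2 ± 5.34 CPM in DOX cells and 11.2 ± 3.55 in H2O cells (SD, n = 6 each), and the SVOPL region 7.07 ± 1.43 and 4.78 ± 1.33. In each of the 6 the treatments overlapped, and 4 were higher in 6 of 6 pairs.

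In single lines few regions were called. In shDPPA2 cells 4 regions with distal domains were lower and none higher, where 0.0187% of all regions were called lower. They included the region in the noncoding gene ENSG00000287820, chr6:139977401-139985200 (log2 fold change −2.56, SE 0.37), which also holds a run near a gene start, and those in ENSG00000258107 (−1.16, SE 0.18) and in DLGAP1, a postsynaptic scaffold gene (−0.93, SE 0.13), and that nearest to FA2H (−0.59), each at an edgeR adjusted p of 0.0486. In shDPPA4 cells 5 were lower, where 0.0281% of all regions were. After MAP4K3 the largest were a FOXP2 intron region, chr7:114529501-114537000 (−2.32, SE 0.32, edgeR adjusted p = 0.017), and that in ENSG00000258107 (−1.18, SE 0.18, adjusted p = 0.0302). FOXP2, a transcription factor of brain and lung development, had 3.48 and 2.46 CPM in shDPPA4 DOX cells, against 16.97 and 12.6 in shDPPA4 H2O cells, and no fall in the other lines (0.32, SE 0.26, and 0.09, SE 0.29). That difference between lines was not called. The CPM values count only reads within called peaks. Over the 3 lines, the called length in the FOXP2 region ran from 900 to 7100 bp in DOX and from 2500 to 4800 bp in H2O libraries. The domain itself had a median density of 2.46 in DOX cells and 3.27 in H2O cells, with overlapping ranges. With the called length as an offset, 0 regions with distal domains were called in shDPPA4 cells. In shDPPA2+4 cells edgeR called 0 regions with distal domains, 648 (10.6%, against 11.2% of all regions) had an unadjusted p under 0.05, and DESeq2 called 0.

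Leaving out single libraries changed these counts too. The shDPPA2 count was 0 without shDPPA2 H2O replicate 1 or 2, shDPPA2 DOX replicate 2, or any of the 4 H2O libraries of shDPPA4 and shDPPA2+4, 1 without shDPPA2 DOX replicate 1, 2 without shDPPA4 DOX replicate 1, and 34 without shDPPA2+4 DOX replicate 1 or 2. The shDPPA4 count was 3 without any 1 of the 4 shDPPA2 libraries, 1 and 2 without shDPPA4 H2O replicates 1 and 2, 11 without shDPPA4 DOX replicate 2, and 63 and 60 without shDPPA2+4 DOX replicates 1 and 2. The shDPPA2+4 count was 215 without shDPPA2+4 DOX replicate 1 and 1 without shDPPA4 DOX replicate 1. A line left with 1 library in a group took its spread from the others.

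Polycomb-linked marks were far less frequent on distal domains than on runs near gene starts. In the H2O libraries H2AK119ub marked 19.4% ± 4.36 of distal domains and 42.8% ± 8.84 of other runs, and H3K27me3 5.30% ± 1.85 and 9.87% ± 2.63 (SD, n = 6 libraries). The difference was −23.4 percentage points for H2AK119ub and −4.57 for H3K27me3, lower in 6 of 6 libraries for each, with a p of 0.0312 in the exact two-sided sign-flip permutation test, the smallest that 6 libraries allow, and the same after adjustment over the 2 marks. Among runs of 500 to 1000 bp only, where length is matched, the differences were −21.2 and −13.8 points. Replicate 3 libraries were lower than replicate 1 for both marks, and the differences within replicate 1 were −26.5 and −5.25 points and within replicate 3 −20.3 and −3.88.

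Most distal domains carried neither mark. H2AK119ub was absent in all 6 H2O libraries from 5390 (66.3%), against 35.2% of other runs, and present in all 6 on 743 (9.15%), against 23.5%. H3K27me3 was present in all 6 on 152 (1.87%), against 4.69%, and 143 of these were also marked by SUZ12. Both marks in all 6 were found on 121 domains, and H2AK119ub in all 6 with H3K27me3 in none on 430 (5.29%), against 14.5% of other runs. SUZ12 marked 469 distal domains (5.77%), against 12.03%. Of all distal domains 1330 (16.4%) had none of H2AK119ub, H3K27me3 or H3K27ac in any of these libraries, against 4.89% of other runs.

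Transcript starts and CpG content separated marked from unmarked distal domains. H2AK119ub marked 43.0% ± 7.80 of domains with a transcript start within 500 bp and 13.2% ± 3.46 of those with none within 5 kb, and H3K27me3 11.3% ± 3.59 and 3.83% ± 1.49 (SD, n = 6 H2O libraries). By CpG ratio the gap was wider. H2AK119ub marked 47.0% ± 8.19 of domains with a ratio of at least 0.6 and 8.31% ± 2.98 of those below, and H3K27me3 15.0% ± 4.86 and 1.41% ± 0.65. Each of these 4 differences was higher in 6 of 6 libraries, with an exact sign-flip permutation p of 0.0312. They were chosen after the data had been seen.

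On each side of the CpG cut, domains with a transcript start within 500 bp were marked more often than those with none within 5 kb. Length, density and the CpG ratio within each side were not matched in this split. Among CpG-rich domains alone, H2AK119ub marked 55.4% with a transcript start within 500 bp and 39.4% with none within 5 kb, and H3K27me3 16.4% and 13.4%. Among CpG-poor domains the values were 21.3% and 6.52% for H2AK119ub, and 2.23% and 1.38% for H3K27me3. CpG-rich distal domains as a whole had 47.0% for H2AK119ub and 15.0% for H3K27me3, against 48.2% and 12.1% of CpG-rich runs near gene starts. CpG-poor distal domains had 8.31% and 1.41%, against 25.9% and 2.90% of CpG-poor runs near gene starts.

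**Figure D3:**
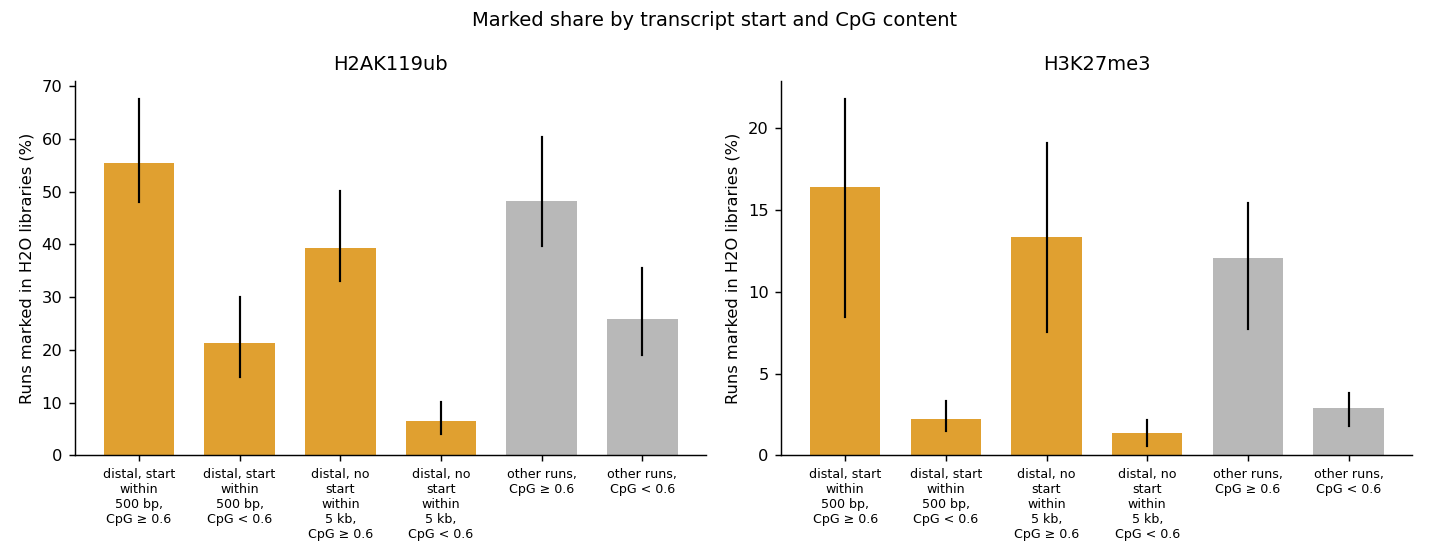
Share of runs (%) marked by H2AK119ub (left) and H3K27me3 (right) in H2O libraries, for distal domains split by transcript start and CpG observed over expected, and for other runs. Bars are means of 6 libraries starting at 0 and lines run from the lowest to the highest library. CpG-poor domains with no start within 5 kb have the lowest bars, 6.52% and 1.38%.

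Whole coverage by H2AK119ub in all 6 H2O libraries was seen on 139 distal domains, and by H3K27me3 on 23. The first 5 of each in genome order are described. For H2AK119ub they lay at chr1:2543501-2544200, in PLEKHG5, in an intron of the muscle stem cell factor PAX7, in RNF220 and next to FOXD2, a forkhead gene. Those in PAX7, RNF220 and near FOXD2 were also marked by H3K27me3 in 6 of 6 H2O libraries and by SUZ12, and those at chr1:2543501-2544200 and in PLEKHG5 by neither. For H3K27me3 they lay near BARHL2, a homeobox gene, at 2 sites in the nuclear receptor gene NR5A2, at chr2:94272701-94273900 and in IL18R1, all 5 marked by SUZ12 too. Their median H3K4me3 densities in H2O cells were 4.77 to 14.5. The share of their bases under H3K27me3 in DOX cells averaged 93.9% to 100% over the 6 libraries.

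With DOX, fewer distal domains carried H2AK119ub in most pairs, and the difference did not pass the test. H2AK119ub marked 14.4% ± 6.27 in DOX cells and 19.4% ± 4.36 in H2O cells (SD, n = 6 each). In replicate 1 the shares were 23.3% in DOX and 17.9% in H2O cells of shDPPA2, 15.0% and 24.0% in shDPPA4, and 20.2% and 25.8% in shDPPA2+4. In replicate 3 they were 7.42% and 17.4%, 9.40% and 15.5%, and 11.3% and 15.9% in the same lines. Only shDPPA2 replicate 1 was higher with DOX, and the 3 DOX libraries of replicate 3 were the lowest of all 12. The mean difference was −4.99 points, lower in 5 of 6 pairs, with an exact sign-flip permutation p of 0.0938 (0.188 adjusted over 2 marks). Other runs differed the same way, with 32.2% ± 13.8 in DOX cells and 42.8% ± 8.84 in H2O cells. In replicate 1, peaks past the study's filter covered 98.4 Mb in DOX and 41.6 Mb in H2O cells of shDPPA2. In shDPPA4 they covered 37.8 and 79.4 Mb, and in shDPPA2+4 59.6 and 90.7 Mb. In replicate 3 they covered 97.6 and 55.7, 89.8 and 47.9, and 94.3 and 56.5 Mb in the same lines. Replicate 3 held 4236320 to 5354798 reads in peaks in DOX and 1425338 to 1749394 in H2O cells. The part of depth and peak coverage in these shares was not tested.

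H3K27me3 marked 5.56% ± 1.29 of distal domains in DOX cells and 5.30% ± 1.85 in H2O cells (SD, n = 6 each), lower in 3 of 6 pairs. The mean difference of 0.256 points had an exact permutation p of 0.688. It was −0.246 in replicate 1 alone and 0.759 in replicate 3 alone.

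**Figure D4:**
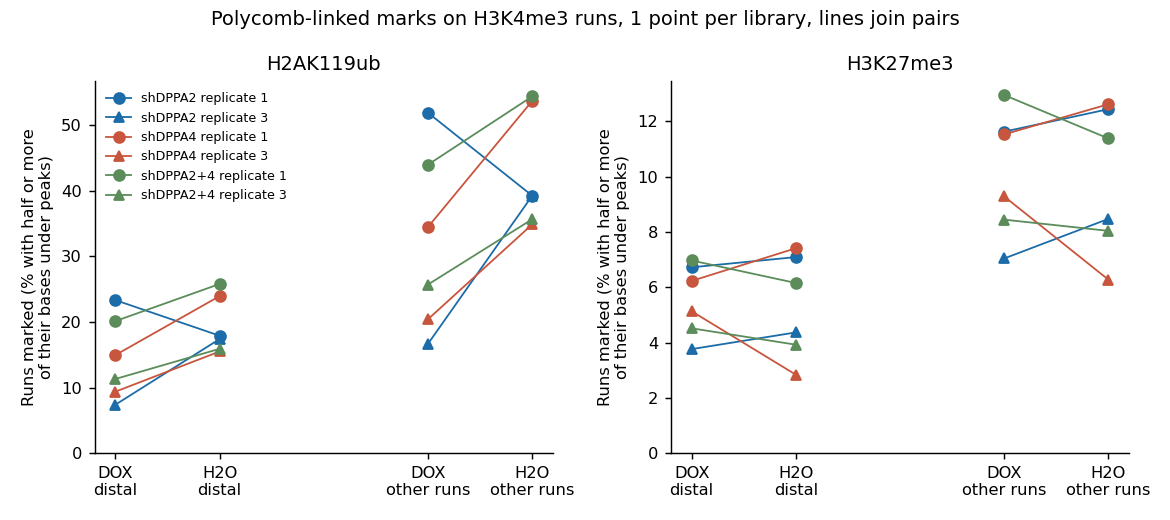
Share of runs (%) with at least 50% of their bases under H2AK119ub (left) or H3K27me3 (right) peaks, for distal domains and other runs, with DOX left of H2O and lines joining the same line and replicate. H2AK119ub falls with DOX in 5 of 6 pairs on both kinds of run, and H3K27me3 lines cross.

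With both replicates of a line required, more distal domains lost H2AK119ub than gained it in each line. A domain was counted as lost where both H2O libraries of a line marked it and no DOX library did, and as gained in the reverse case. In shDPPA2 cells 60 were lost (0.739% of 8124), against 1.03% of all 23167 runs, and 24 gained (0.295%), against 0.376%. In shDPPA4 cells 236 were lost (2.90%), against 4.56%, and 4 gained (0.0492%), against 0.0734%. In shDPPA2+4 cells 127 were lost (1.56%), against 2.22%, and 10 gained (0.123%), against 0.181%. Of the domains marked in both H2O libraries of the line, these losses were 5.77% of 1039 in shDPPA2, 20.7% of 1139 in shDPPA4 and 10.6% of 1198 in shDPPA2+4 cells, where other runs lost 3.80%, 16.3% and 7.52%. Read in replicate 1 or replicate 3 alone, losses numbered 291 and 857 in shDPPA2, 923 and 610 in shDPPA4 and 725 and 509 in shDPPA2+4 cells, and gains 731 and 45, 194 and 113, and 266 and 136. In shDPPA2 cells gains thus outnumbered losses in replicate 1, and the order of the lines by losses differed between the replicates. Depth and peak coverage differed between these libraries as given above, and their part in the losses and gains was not tested.

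In all 3 lines 1 distal domain lost H2AK119ub and in 2 lines 32 (0.394%), against 3 and 98 (0.651%) of the other runs. The domain lost in all 3 lines was in CABP1, a neuronal calcium sensor gene, at chr12:120649001-120649600, where H2AK119ub covered on average 16.7% of the bases in DOX cells and 97.2% in H2O cells. Its H3K4me3 density was 4.11, 5.10 and 6.61 in DOX cells (lowest, median, highest), against 4.50, 5.14 and 6.04, so that H3K4me3 overlapped between the treatments. The longest lost in 2 lines were in DPYSL2, a neuronal guidance signalling gene (24.7% of bases in DOX cells, 58.1% in H2O cells), and NDE1, a centrosome and dynein cofactor gene (28.0% and 56.7%). None of these 3 was marked by H3K27me3 in H2O cells. Domains gained in 2 lines were in PALM2AKAP2 (75.0% of bases in DOX cells, 31.2% in H2O cells) and in the growth factor adaptor gene GRB10 (83.3% and 33.3%). Both were marked by SUZ12 in parental cells, and H3K27me3 covered 85.4% and 63.3% of their bases in DOX cells, against 58.3% and 3.33% in H2O cells.

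H3K27ac was present on many distal domains in parental cells and was lower with A-485. In replicate 2 it marked 25.6% of distal domains with A-485 and 62.9% with DMSO, and in replicate 4 16.2% and 39.5%. For other runs the shares were 19.0% and 65.6% in replicate 2 and 18.5% and 78.2% in replicate 4. The differences were −37.3 and −23.4 points for distal domains and −46.6 and −59.7 for the other runs. With 2 libraries against 2 an exact permutation test cannot pass 0.05, and these are given as values only. In replicate 4 each list was called against the input of the other treatment. In both DMSO libraries H3K27ac marked 2133 distal domains (26.3%), against 56.3% of other runs, and in neither 1932 (23.8%), against 12.5%.

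Of the domains marked with DMSO, a larger part kept H3K27ac with A-485 than among the other runs. Distal domains kept it in 39.4% of cases in replicate 2 and 23.7% in replicate 4, against 28.5% and 21.6%. Those with no transcript start within 5 kb kept it in 41.8% and 26.7%, those between these limits in 34.4% and 20.9%, and those within 500 bp in 30.3% and 18.5%. The order was the same in both replicates. Depth and peak coverage differed between these libraries as given above, and their part in the kept shares was not tested. A further 64 distal domains in replicate 2 and 552 in replicate 4 were marked only with A-485.

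**Figure D5:**
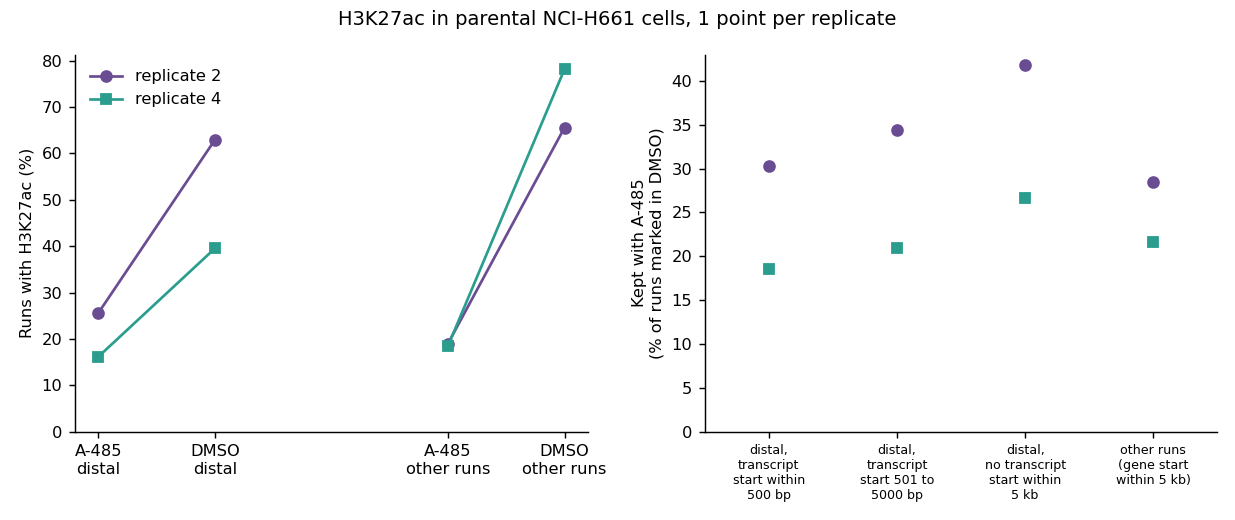
Left, share of runs (%) marked by H3K27ac in parental cells with A-485 and with DMSO, for distal domains and other runs, with lines joining each replicate. Right, share (%) of the runs marked with DMSO that stayed marked with A-485, by class. Distal domains with no transcript start within 5 kb kept most, 41.8% and 26.7%.

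In parental cells too the Polycomb-linked marks were less frequent on distal domains than on other runs, in each of the 10 libraries. H2AK119ub marked 8.17% and 3.15% of distal domains with A-485 (replicates 3 and 4), against 10.3% and 3.43% with DMSO. H3K27me3 marked 4.22%, 4.63% and 2.92% with A-485 (replicates 2, 3 and 4), against 5.65%, 5.83% and 0.763% with DMSO, so that replicate 4 ran the other way. Its DMSO library was weak, with 589049 reads in peaks, against 1671628 with A-485. Filtered H3K27me3 peaks covered 166, 198 and 61.0 Mb with A-485 and 241, 280 and 21.9 Mb with DMSO. For H2AK119ub they covered 57.3 and 23.5 Mb with A-485 and 77.6 and 16.5 Mb with DMSO. The part of depth and peak coverage in these shares was not tested. In the DMSO libraries other runs had 22.8% and 7.41% for H2AK119ub, and 9.51%, 10.1% and 1.11% for H3K27me3.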

How the data were processed

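ChIP-seq with a mouse embryonic stem cell spike-in was done on NCI-H661 cells, and 51 peak lists with 4391449 peaks were read, out of 59 samples (the other 8 are inputs). Per the study's methods, adapter trimming used Trim Galore 0.6.6 and alignment to human hg38 used BWA 0.7.13, followed by SAMtools 1.9, Picard 2.6.0, deepTools 3.5.0 and XenofilteR. Peaks were called by EPIC2 on a 100 bp grid. The methods name another caller for SUZ12, but its list has EPIC2's columns.

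The deposited counts are whole reads of ChIP and input per peak, not normalized. The deposited log2 fold change compares ChIP with input per peak, and the deposited p-value and FDR are the caller's own. The deposited score was not used. Spike-in reads and the study's blacklist were not used here. Both H3K27ac replicate 4 lists were called against the other treatment's input.

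Distal H3K4me3 domains were chosen from all deposited peaks of the 6 H2O libraries. Marks were counted from peaks past the study's filter (log2 above 1, FDR under 0.05), and a run was marked where at least 50% of its bases were covered. The members and gene lists were chosen with earlier results of these data known. Merged H3K4me3 regions that had peaks in all 12 libraries and a mean count of at least 10 were fitted in edgeR 4.0.16 (quasi-likelihood, TMM, R 4.3.3, limma 3.58.1) with a term for replicate number (the replicate block). The threshold for a call was an adjusted p (Benjamini-Hochberg) below 0.05 and a log2 fold change of 0.5 or more in size. The block follows the study, which made replicates in batches, and the deviations of replicate 1 from the group means correlated between groups (0.324 to 0.499). The fit was also run on simulated counts for the comparison over 3 lines, with 200 of 21342 regions changed. It recovered 99% of log2 changes of 1 and 97% of those of 0.7, with 1 false call. The simulated counts had the same dispersion in every region and no replicate or line effects, unlike the real libraries. This run thus checks the code, and cannot give the power or the false calls in these data. Shares of marked domains were compared by an exact permutation test (two-sided, flipping the sign of each pair's difference), DOX and H2O being paired by line and replicate number. Nothing in the labels says that replicates were separate cultures, so the p-values cover only how these samples vary.

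Named domains were the 8 longest, the 8 of highest density, the 5 farthest from a gene start, the regions most changed among those called (10 over the lines, moving one way in 6 of 6 pairs, and 3 per line), the first 5 in genome order wholly under each Polycomb-linked mark, and 3 each that lost or gained H2AK119ub. Some of these are not reported here. Changes were read per region, since a region can hold several domains. Alternatives were DESeq2 1.42.0, no count filter, no block, all deposited peaks, called length as an offset, other rules for domains and marks, and leaving out replicates and libraries. Splits by transcript start and CpG content, and domains chosen in other libraries, were added after seeing the data. The soft-masked share of bases was not run. Python 3.11.15, pandas 2.3.3, numpy 2.4.6 and matplotlib 3.10.9 were used. Sequences come from the hg38 reference and gene models from GENCODE v44.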

Additional observations from a re-analysis of the deposited data

Results flagged for a closer look

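The H3K4me3 region in MAP4K3, chr2:39407801-39413900, was the only region with distal domains whose response to DOX differed between lines in edgeR. The log2 fold change in shDPPA4 minus that in shDPPA2 was −2.81 (SE 0.33, adjusted p = 0.0076), and that in shDPPA2+4 minus that in shDPPA4 was 2.41 (SE 0.32, adjusted p = 0.042). The region had 2.19 and 2.08 CPM in the 2 shDPPA4 DOX libraries, against 18.1 and 14.3 in the shDPPA4 H2O libraries. These differences were not called without the replicate block, with all deposited peaks or with the called length as an offset. With 1 library left out, shDPPA4 minus shDPPA2 gave 0 called regions with distal domains without shDPPA2 H2O replicate 2, shDPPA2 DOX replicate 1, shDPPA4 H2O replicate 1 or shDPPA4 DOX replicate 1, and at most 3 otherwise. For shDPPA2+4 minus shDPPA4 the count was 2 without shDPPA4 DOX replicate 2, 5 and 30 without shDPPA2+4 DOX replicates 1 and 2, and 0 without any other library. DESeq2 called 3 and 2 regions in these differences. Among 28 groups of 6 libraries searched for a library far from the others, none was found, where chance gives about 1 in 20.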

How the results depend on the processing

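The number of distal domains was 4975 when at least 1000 bp were asked for. Regions called with DOX over the 3 lines numbered 27 with DESeq2 and 0 with no replicate block, and 0 to 207 when replicates or libraries were left out. In shDPPA2 the count was 0 without the block, with DESeq2 and with all deposited peaks, 1 with the called length as an offset, and 0 to 34 with libraries left out. In shDPPA4 it was 1 without the block, 0 with DESeq2, all deposited peaks or the offset, and 1 to 63 with libraries left out. In shDPPA2+4 it was 1 with all deposited peaks and 0 to 215 with libraries left out. Without the pairing by replicate block, the exact permutation p of the DOX difference was 0.141 for H2AK119ub and 0.784 for H3K27me3, which changed no other call. The cause was not tested.

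The H3K27me3 difference with DOX was −0.236 points when 100 bp of cover counted as marked, and −0.246 to 0.759 with a replicate left out. That of H2AK119ub was −5.84 points with 100 bp of cover, lower in 6 of 6 pairs (exact p = 0.0312, 0.0625 adjusted), and −6.90 to −3.07 with a replicate left out. With a replicate left out, 3 libraries cannot go below an exact p of 0.25. Distal minus other runs then gave −26.5 to −20.3 points for H2AK119ub and −5.25 to −3.88 for H3K27me3. The split by transcript start gave 27.4 to 32.2 and 5.75 to 9.13, and that by CpG content 36.4 to 41.1 and 9.93 to 17.1.

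Domains that lost H2AK119ub in shDPPA2 numbered 134 with 100 bp of cover and 30 with all deposited peaks, and with 100 bp of cover 10 were gained in shDPPA4 and 20 in shDPPA2+4. With a replicate left out, shDPPA2 had 291 to 857 losses and 45 to 731 gains, shDPPA4 610 to 923 losses and 113 to 194 gains, and shDPPA2+4 509 to 725 losses and 136 to 266 gains. H3K27ac with A-485 minus DMSO was −37.3 to −23.4 points, and distal minus other runs in DMSO −38.7 to −2.64. Few reads per region limit the weakest domains.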
